A study of Homo sapiens with 12 samples.

Results

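The 10 genes described here (SQSTM1, NBR1, MAP1LC3B, GABARAPL1, GABARAPL2, ULK1, BECN1, ATG14, WIPI1 and ATG5) encode cargo receptors, LC3 family proteins and initiation and conjugation proteins of autophagy. They were chosen by name for these roles, with earlier results of these data known, out of 60669 genes in the count table. The choice was therefore not blind to the data. All 10 were among the 18720 genes that passed the expression filter. RNA-seq was made from 6 established cell lines, described by the study as ovarian cancer (OC) lines, that form 3 isogenic pairs. These are HeyA8 and its carboplatin-resistant partner HeyA8-MDR, SK-OV-3 and its taxol-resistant partner SK-OV-3-TR, and OV2008 and its cisplatin-resistant partner C13. Each line was exposed for 6 h to 8 µM quinacrine (QC), an antimalarial drug, or to buffer alone (vehicle), with 1 library for each line and treatment and 12 in all. Sensitive vehicle, sensitive QC, resistant vehicle and resistant QC libraries therefore number 3 each, the 3 lines of a group stand in for replicates, and no line has a replicate culture of its own. The comparisons ask how QC changed these genes over all lines, in the sensitive and in the resistant lines, and whether the resistant lines differed from their partners without drug.

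Autophagy encloses portions of cytoplasm in a double membrane that closes into an autophagosome and fuses with the lysosome. The ULK1 kinase and the lipid kinase complex that holds BECN1 and ATG14 start the membrane, WIPI1 binds the lipid that this complex makes, and ATG5, joined to ATG12, helps to attach LC3 and GABARAP proteins to the membrane. SQSTM1 (p62) and NBR1 bind ubiquitinated cargo on 1 side and LC3 on the other and are themselves degraded in the lysosome. QC is a weak base that collects in acidic compartments such as lysosomes. RNA levels do not measure the flow of material through this pathway.

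Reads counted on genes totalled 17782556 to 30585059 per library, with a median of 22289428. Members had between 154 counts (WIPI1) and 14149 counts (SQSTM1) in a library. Levels are given as CPM, the read count scaled to a common library size with edgeR's TMM factors. The HeyA8 QC library stood apart: in 145 genes whose vehicle level was at least 8-fold higher in HeyA8-MDR than in HeyA8, it covered a median of 66.3% of that log2 gap, and in 155 genes at least 8-fold lower it covered 23.7%. The other 5 QC libraries covered at most 15.3% of the gap to their partner line. ABCB1, the drug efflux pump, went from 4.12 CPM in vehicle to 26.5 CPM with QC in HeyA8 and stood at 53.9 CPM in HeyA8-MDR vehicle. It also moved towards the partner's level in SK-OV-3-TR, from 334 to 147 CPM (SK-OV-3 vehicle 0.167 CPM), and in OV2008, from 38.2 to 8.38 CPM (C13 vehicle 0.599 CPM). A move of ABCB1 towards the partner was thus not confined to HeyA8, but on the log2 scale HeyA8 came nearest to its partner. Results are therefore also given without the HeyA8 family. As a check of the label, PAX8, which marks Müllerian epithelium, had at least 234 CPM in the HeyA8 and SK-OV-3 families and at most 24.8 CPM in OV2008 and C13, which carried the squamous markers TP63 (108 to 329 CPM) and KRT5 (2550.1 to 11213 CPM). EPCAM was at most 2.92 CPM in the HeyA8 family, 3.07 to 52.8 CPM in the SK-OV-3 family and 183 to 246 CPM in OV2008 and C13. Of the other ovarian epithelial markers, KRT8 and KRT18 were at least 161 CPM in every library. KRT7 was at least 259 CPM in the HeyA8 and SK-OV-3 families and at most 26.9 CPM in OV2008 and C13. In OV2008 and C13, low PAX8 and KRT7 and the squamous markers thus went against the ovarian label, whereas EPCAM, KRT8 and KRT18 did not. WT1 and MUC16 were at most 10.9 CPM and MUC1 at most 53.3 CPM. The HeyA8 family carried the endothelial marker CDH5 at 89.3 to 176 CPM. The leukocyte markers PTPRC, CD3E and CD68 were at most 0.665 CPM in every library. Of 3 fibroblast markers COL3A1 and DCN were at most 0.681 CPM, whereas COL1A1 ranged from 0.727 to 32.5 CPM in the HeyA8 family, 9.31 to 39.4 CPM in the SK-OV-3 family and 11.95 to 16.3 CPM in OV2008 and C13. The part of these differences in the results was not tested. In bulk RNA, a shift in the mix of cells and a shift within cells cannot be told apart.

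Across the 6 lines, 4 of the 10 genes were higher with QC at an unadjusted p under 0.05 and 0 were lower. These were MAP1LC3B (log2 change 0.59), GABARAPL2 (0.43), NBR1 (0.25) and BECN1 (0.24). Over all genes tested, 15.2% had an unadjusted p under 0.05, 7.99% higher and 7.18% lower. After Benjamini-Hochberg adjustment over all genes, edgeR's quasi-likelihood test called 0 of the 10 members and 0% of all genes, the smallest adjusted p of any gene being 0.123. DESeq2 with the same terms called MAP1LC3B (adjusted p = 0.00649) and none of the other members, and edgeR without the expression filter also called MAP1LC3B alone among them (adjusted p = 0.00438). The SE of its log2 change was no smaller there (0.1444 and 0.1405, against 0.1297 in the main edgeR fit). The share of all genes that these 2 settings called was not counted, so these calls have no background beside them. The fitted log2 change was positive for all 10 members and its median was 0.24, against 0.0001 over all genes tested. Of the 60 values of 10 genes in 6 lines, 49 were above 0, where 46.0% to 49.5% of all genes tested were higher in a line. The 60 values are not independent, since the genes share libraries and the lines form isogenic pairs. The number of members past the unadjusted threshold was 2 (MAP1LC3B and GABARAPL2) without HeyA8, without HeyA8-MDR or without OV2008, and 1 (MAP1LC3B) without both HeyA8 lines. The share of all genes that passed in these reduced fits was not counted.

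**Figure D1:**
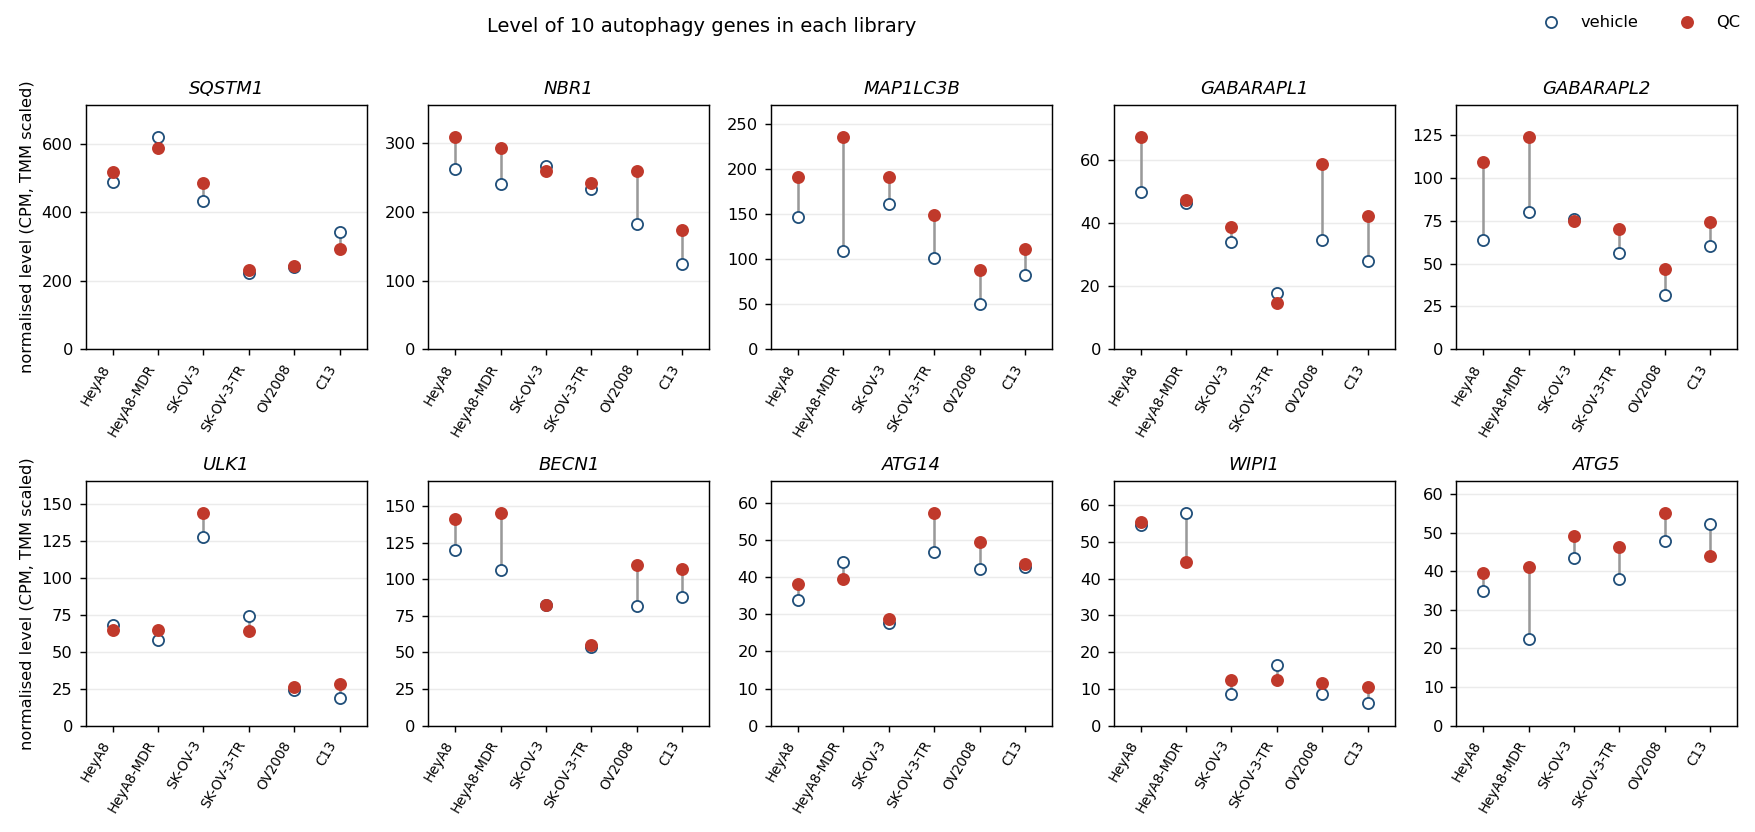
Level of each gene in the 12 libraries, in CPM after TMM scaling, with vehicle as open circles and QC as filled circles joined within each of the 6 lines. MAP1LC3B lay higher with QC in every line, whereas SQSTM1 lay higher in 4 lines and lower in 2.

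The LC3 family genes code for the small ubiquitin-like proteins that are linked to the autophagosome membrane. MAP1LC3B (ENSG00000140941.14) stood at 147, 161 and 50.5 CPM in vehicle-treated HeyA8, SK-OV-3 and OV2008 and at 191, 192 and 87.8 CPM after QC. In their resistant partners, in the same order, it stood at 109, 102 and 82.1 CPM in vehicle and at 236, 149 and 111 CPM after QC. Each of the 6 lines was thus higher with QC, by 0.25 (SK-OV-3) to 1.11 (HeyA8-MDR) on the log2 scale, although the vehicle and QC ranges over lines overlapped. The 95% interval of the QC to vehicle ratio, which covers counting error only, lay above 1 in all 6 lines. The fitted log2 change was 0.59 ± 0.13 (SE, 6 lines, adjusted p = 0.141), which ranked 85 by p among 18720 genes. An exact sign-flip test over the 6 lines gave a two-sided p of 0.03125, the smallest that 6 lines allow, for MAP1LC3B and for BECN1, the other member that was higher in all lines (10 such tests were made, 1 for each gene, and these p-values are not adjusted). That test, like the fit over 6 lines, takes the lines as independent, although they form isogenic pairs. In all, 4.13% of genes tested were higher with QC in 6 of 6 lines. Without both HeyA8 lines the fitted change of MAP1LC3B was 0.50 ± 0.13 (SE, 4 lines, adjusted p = 0.498).

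GABARAPL2 (ENSG00000034713.8) was at 63.5, 76.0 and 31.6 CPM in the vehicle libraries of HeyA8, SK-OV-3 and OV2008 and at 109, 75.0 and 46.7 CPM in their QC libraries. In their resistant partners the vehicle libraries were at 79.8, 56.1 and 60.4 CPM and the QC libraries at 124, 70.0 and 74.0 CPM. The ratio was largest in both HeyA8 lines, and SK-OV-3 was the single line that was not higher. The fitted log2 change was 0.43 ± 0.13 (SE, 6 lines, adjusted p = 0.176), and 0.28 ± 0.14 without both HeyA8 lines (adjusted p = 0.571). GABARAPL1 (ENSG00000139112.11) was at 50.1, 34.0 and 34.7 CPM in vehicle and 67.6, 38.9 and 58.9 CPM with QC in HeyA8, SK-OV-3 and OV2008. Its values in their resistant partners were 46.6, 17.8 and 28.1 CPM in vehicle and 47.4, 14.8 and 42.3 CPM with QC. The QC value was lower in SK-OV-3-TR and highest relative to vehicle in the OV2008 pair, and the fitted change of 0.29 ± 0.15 (SE, 6 lines) did not pass the unadjusted threshold (adjusted p = 0.36).

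Of the other family members, GABARAP had a log2 change of 0.04 (adjusted p = 0.932), MAP1LC3A one of -0.15 (adjusted p = 0.835) and MAP1LC3B2 one of -0.05 (adjusted p = 0.978), none of which passed. MAP1LC3A had 0 to 3 counts in the 6 libraries of HeyA8, HeyA8-MDR and SK-OV-3-TR, and MAP1LC3C was below the expression filter. MAP1LC3B2, a near copy of MAP1LC3B on another chromosome, had 2 to 20 counts per library where MAP1LC3B had 901 to 5227, the pseudogene MAP1LC3BP1 had 0 to 4 and GABARAPL3, a copy of GABARAPL1, had 0 in every library. How reads that match several copies were counted is not stated.

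The promoters of MAP1LC3B and GABARAPL2, the members with the 2 smallest p-values, are shown because both genes lie on chromosome 16 and were higher with QC. The windows run from 250 bases before to 50 bases after the RefSeq start site on GRCh38.p14, both on the plus strand, and capitals mark the match to a searched motif.
MAP1LC3B, chr16:87392086-87392385: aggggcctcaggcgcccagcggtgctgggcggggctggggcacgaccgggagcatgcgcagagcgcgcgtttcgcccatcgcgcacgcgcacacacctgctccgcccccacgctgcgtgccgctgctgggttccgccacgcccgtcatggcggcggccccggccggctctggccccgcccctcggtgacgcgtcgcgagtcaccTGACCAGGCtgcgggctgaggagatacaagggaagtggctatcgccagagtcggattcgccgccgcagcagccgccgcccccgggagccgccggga
GABARAPL2, chr16:75566129-75566428: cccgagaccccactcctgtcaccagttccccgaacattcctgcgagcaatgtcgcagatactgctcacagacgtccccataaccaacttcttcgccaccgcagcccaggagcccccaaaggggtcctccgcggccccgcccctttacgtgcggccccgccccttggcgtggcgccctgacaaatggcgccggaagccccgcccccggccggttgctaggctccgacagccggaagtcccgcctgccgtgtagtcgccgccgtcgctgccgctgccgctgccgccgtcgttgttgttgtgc
The letters searched on both strands were CACGTG (E-box), its longer form TCACGTGA, which overlaps it and lies at the core of the CLEAR element read by TFEB, TGACNNNGC (the antioxidant response element read by NRF2) and TGATGNAA (the core of the element read by ATF4 with a C/EBP partner). The capitals in MAP1LC3B are a match to TGACNNNGC that starts 46 bases before the start site, and 13.3% of 35116 RefSeq promoters of this length hold at least 1 match. GABARAPL2 holds none of the 4 motifs. Among the 14 promoter windows of the 10 genes, the other match was a CACGTG in ATG14, which 7.26% of promoters hold, here in the 30 bases around it on the minus strand.
ATG14, chr14:55411835-55411864: gaaaacaaaatccCACGTGactggctctcc
TCACGTGA is in 0.98% of promoters and TGATGNAA in 3.62%, and neither is in a window of the 10 genes. A match describes letters and is not a bound site.

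Of the cargo receptors, NBR1 passed the unadjusted threshold and SQSTM1 did not, and the difference between both genes was not tested. SQSTM1 (ENSG00000161011.20) was at 489.6, 434 and 241 CPM in vehicle-treated HeyA8, SK-OV-3 and OV2008 and at 517, 485 and 244 CPM with QC. In their resistant partners it was at 621, 224 and 344 CPM in vehicle and 587, 233 and 293 CPM with QC. Line changes lay between -0.23 (C13) and 0.16 (SK-OV-3) on the log2 scale, 4 lines were higher and 2 lower, and the fitted log2 change was 0.0011 ± 0.11 (SE, 6 lines, adjusted p = 0.997). NBR1 (ENSG00000188554.14), the other receptor, was at 262, 266 and 183 CPM in vehicle and 309, 259 and 259.5 CPM with QC in HeyA8, SK-OV-3 and OV2008. In their resistant partners it was at 241, 233 and 125 CPM in vehicle and 293, 242 and 174 CPM with QC. The log2 change was largest in the OV2008 pair (0.51 and 0.48) and smallest in the SK-OV-3 pair (-0.04 and 0.05). The fitted change of NBR1 was 0.25 ± 0.12 (SE, 6 lines, adjusted p = 0.326) and did not pass without both HeyA8 lines (0.24 ± 0.15, adjusted p = 0.645).

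Of the initiation genes, BECN1 (ENSG00000126581.13), the scaffold of the lipid kinase complex, was at 120.0, 82.2 and 81.9 CPM in vehicle and at 141, 82.6 and 109.7 CPM with QC in HeyA8, SK-OV-3 and OV2008. In their resistant partners it was at 106, 53.8 and 87.8 CPM in vehicle and 145, 55.3 and 107 CPM with QC. Line changes were 0.0063 and 0.04 on the log2 scale in the SK-OV-3 pair and 0.23 to 0.45 in the other 4 lines. The fitted log2 change was 0.24 ± 0.11 (SE, 6 lines, adjusted p = 0.329), and 0.18 ± 0.13 without both HeyA8 lines (adjusted p = 0.709). ATG14 (ENSG00000126775.9), which directs that complex to the forming autophagosome, lay between 27.6 and 57.3 CPM in all libraries, with line changes of -0.16 (HeyA8-MDR) to 0.29 (SK-OV-3-TR) and a fitted change of 0.11 ± 0.11 (adjusted p = 0.701). ULK1 (ENSG00000177169.10) lay between 19.0 CPM (C13 vehicle) and 144 CPM (SK-OV-3 QC), with line changes of -0.21 (SK-OV-3-TR) to 0.55 (C13) and a fitted change of 0.12 ± 0.12 (adjusted p = 0.694).

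WIPI1 (ENSG00000070540.13) had the widest spread of levels and of changes. It was at 54.6, 8.53 and 8.63 CPM in vehicle and 55.3, 12.3 and 11.6 CPM with QC in HeyA8, SK-OV-3 and OV2008. In their resistant partners it was at 57.9, 16.4 and 6.09 CPM in vehicle and 44.5, 12.5 and 10.5 CPM with QC. The 2 resistant lines HeyA8-MDR and SK-OV-3-TR were lower with QC by a similar amount (-0.38 for each on the log2 scale) while C13 was higher by 0.77, so that the fitted change over 6 lines was 0.15 ± 0.17 (SE, adjusted p = 0.72). ATG5 (ENSG00000057663.16) lay between 22.5 and 55.2 CPM, with line changes of 0.86 in HeyA8-MDR, -0.25 in C13 and 0.17 to 0.28 in the other 4 lines. Its fitted change of 0.24 ± 0.14 did not pass (SE, 6 lines, adjusted p = 0.441).

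**Figure D2:**
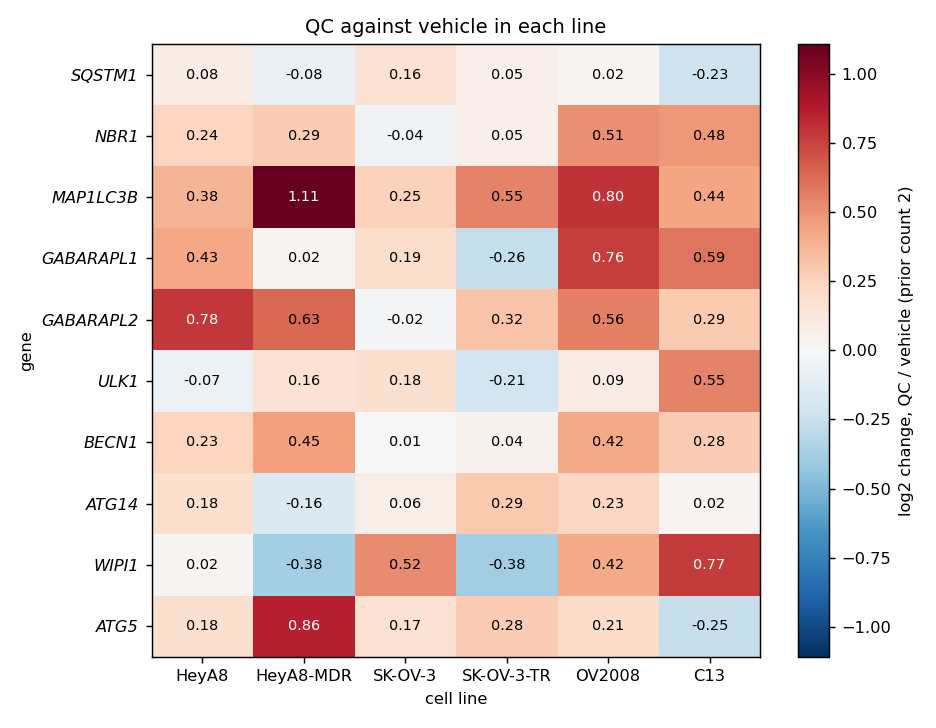
The log2 change with QC of each gene (rows) in each of the 6 lines (columns), with a prior count of 2 added before the ratio. OV2008 was the line in which all 10 genes were above 0, and the highest single value was 1.11 for MAP1LC3B in HeyA8-MDR.

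Line by line, the median log2 change of the 10 genes was 0.21 in HeyA8, 0.22 in HeyA8-MDR, 0.17 in SK-OV-3, 0.05 in SK-OV-3-TR, 0.42 in OV2008 and 0.37 in C13. The number of the 10 genes that were higher with QC was 9, 7, 8, 7, 10 and 8 in the same order, whereas 46.0% to 49.5% of all genes tested were higher in a line. The OV2008 pair thus had the highest medians and SK-OV-3-TR the lowest, and in SK-OV-3-TR GABARAPL1, ULK1 and WIPI1 were the genes below 0. Counted by gene, 2 of the 10 were higher in 6 of 6 lines and 7 in at least 5, the latter against 16% of all genes tested.

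Sensitive and resistant lines were also fitted apart, with a shared estimate of the spread. In the 3 sensitive lines MAP1LC3B (log2 change 0.47 ± 0.19), GABARAPL2 (0.44 ± 0.20) and GABARAPL1 (0.46 ± 0.21) passed the unadjusted threshold, as did 6.59% of all genes tested, and their adjusted p-values were 0.729, 0.733 and 0.752. In the 3 resistant lines MAP1LC3B passed (0.70 ± 0.19, adjusted p = 0.816), as did 6.03% of all genes. edgeR called 0% of genes at an adjusted p under 0.05 in either group, and DESeq2 with the cell line term also called 0 of the 10 members in each. In the sensitive lines 0 members passed when either HeyA8 or OV2008 was left out. Without HeyA8 the log2 changes were 0.52 ± 0.25 (MAP1LC3B), 0.48 ± 0.27 (GABARAPL1) and 0.27 ± 0.24 (GABARAPL2), and without OV2008 they were 0.32 ± 0.24, 0.32 ± 0.26 and 0.38 ± 0.26 in the same order, so that the first 2 were no smaller without HeyA8 and their SE was larger. Without HeyA8-MDR the resistant log2 change of MAP1LC3B was 0.48 ± 0.22 and did not pass the unadjusted threshold.

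The difference between the resistant and the sensitive QC effect was not past either threshold for any of the 10 genes with edgeR or DESeq2, while 1.16% of all genes passed the unadjusted and 0% the adjusted threshold. For MAP1LC3B the resistant effect was larger by 0.23 ± 0.27 on the log2 scale (SE, adjusted p = 0.9998). GABARAPL1 and WIPI1 had the lowest differences, -0.34 ± 0.30 and -0.33 ± 0.36. These standard errors are as large as most of the fitted effects, so a difference of this size could not be told from none with 3 lines a group.

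**Figure D3:**
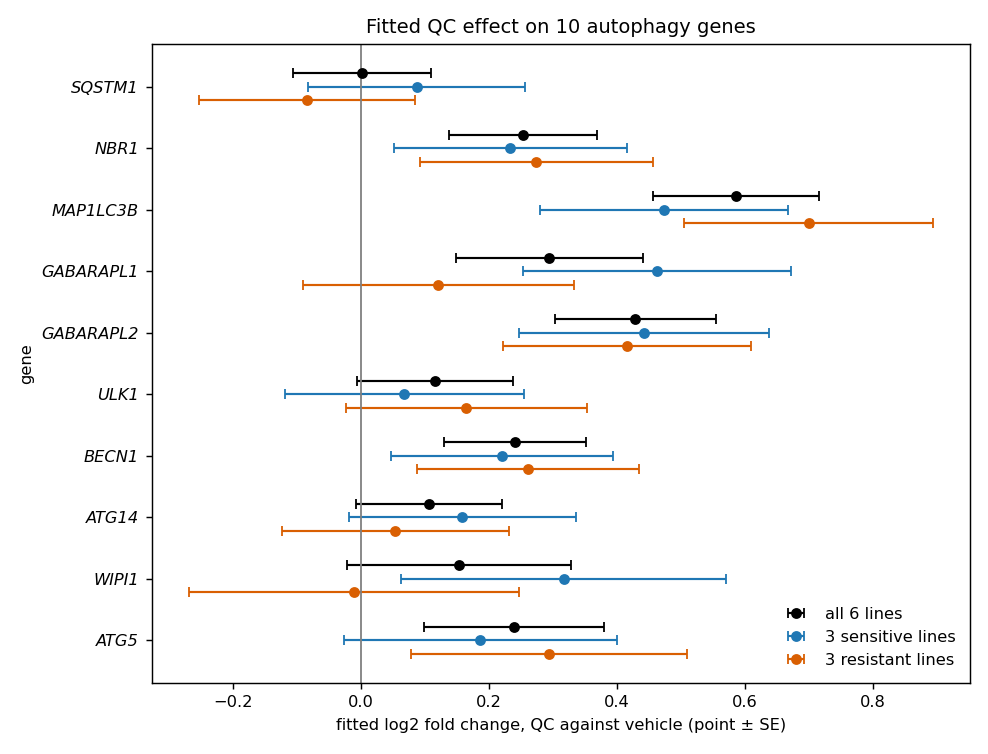
Fitted log2 change with QC of each gene over all 6 lines (black), the 3 sensitive lines (blue) and the 3 resistant lines (orange), as points with their standard errors. MAP1LC3B had the highest value over 6 lines (0.59) and SQSTM1 the value nearest to 0.

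Without drug, the levels were compared between genes per kb of exon, since longer genes collect more reads. Over the 6 vehicle libraries SQSTM1 was highest, at 52.0 ± 20.3 CPM per kb (SD, n = 6), followed by NBR1 (26.0 ± 6.52), MAP1LC3B (21.6 ± 8.12), GABARAPL2 (20.3 ± 5.70), BECN1 (13.8 ± 3.55), GABARAPL1 (8.69 ± 2.94), ATG14 (7.86 ± 1.45), ATG5 (7.05 ± 1.87), ULK1 (8.10 ± 5.16) and WIPI1 (7.45 ± 7.11), in the order of their mean log2 level. Of the 9 pairs of neighbours in this order, SQSTM1 was above NBR1 and BECN1 above GABARAPL1 in 6 of 6 lines (exact sign-flip p = 0.03125 for both, unadjusted). The other 7 pairs of neighbours did not differ beyond their spread over lines, with exact sign-flip p-values of at least 0.0938. The order was taken from the same 6 libraries, so these p-values describe the gaps and are no independent test of the order. The exon lengths are the union of all annotated exons, which understates the level of genes with long rare exons.

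The spread between lines differed among the genes. No line had a replicate culture, so this spread could not be separated into differences between genes, lines, families or libraries. Whether it differed from that of other genes was not tested. In vehicle libraries the highest line exceeded the lowest by 9.50-fold for WIPI1 and 6.70-fold for ULK1, but by 1.70-fold for ATG14 and 2.14-fold for NBR1. WIPI1 was high in both HeyA8 lines and ULK1 was highest in SK-OV-3 and lowest in the OV2008 pair. MAP1LC3B ranged 3.19-fold, from OV2008 to SK-OV-3.

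**Figure D4:**
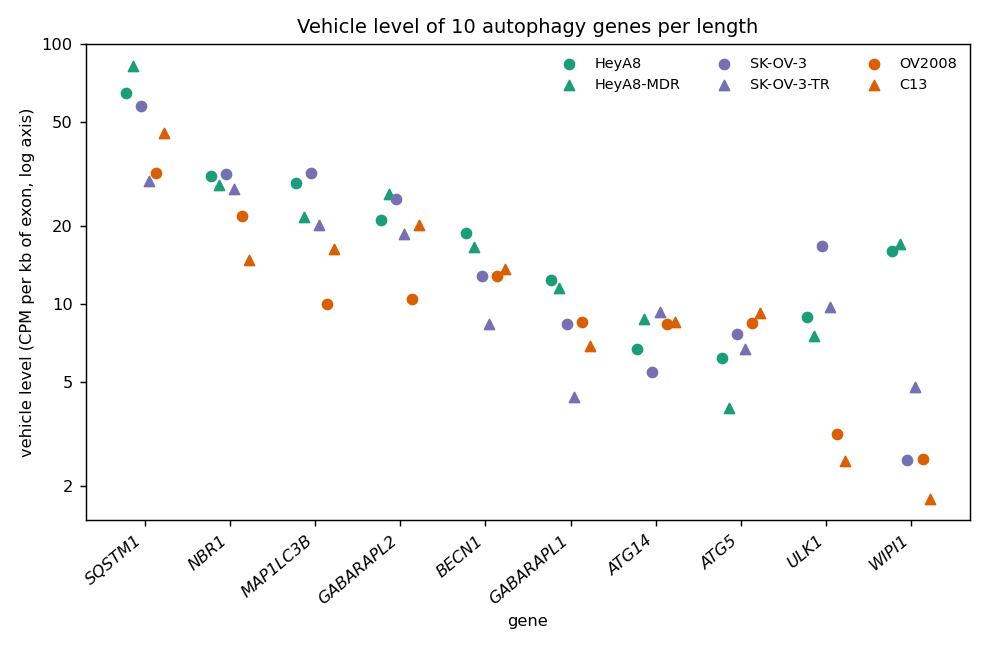
Vehicle level of each gene in CPM per kb of exon (log axis), with circles for sensitive and triangles for resistant lines and 1 colour for each isogenic pair. SQSTM1 lay between 29.8 and 82.4 CPM per kb, and WIPI1 split into the HeyA8 pair at 16.0 and 17.0 and the other 4 lines at 4.81 or less.

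In the comparison of resistant with sensitive vehicle libraries within pairs, 0 of the 10 genes passed the unadjusted threshold with edgeR or DESeq2, against 3.77% of all genes, and 0% of all genes had an adjusted p under 0.05. GABARAPL1, ULK1 and NBR1 were lower in the resistant line in 3 of 3 pairs, with fitted log2 differences of -0.44 ± 0.33, -0.45 ± 0.28 and -0.28 ± 0.26, and 11.5% of all genes had that pattern. ATG14 was higher in the resistant line in 3 of 3 pairs (0.40 ± 0.33, but -0.03 when libraries were scaled to RPLP0), as were 13.1% of all genes. This fit had 2 residual degrees of freedom.

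The rest of the pathway was described by lists written from general knowledge: 71 further genes, of which 70 were tested. Here a gene passed when its unadjusted p was under 0.05, and the p printed beside it is adjusted over all genes tested. Of the 70 genes, 16 (22.9%, against 15.2% of all genes) passed over the 6 lines, 13 higher and 3 lower. The median log2 change of the 70 was 0.05. The adjusted threshold was passed by 0 of them with edgeR and by 7 with DESeq2, whose share of all genes was not counted. In the ULK complex, RB1CC1 (FIP200, its scaffold) had a log2 change of 0.86 ± 0.23 (adjusted p = 0.164) and the other 3 genes did not pass. It was higher in 5 of 6 lines, most in HeyA8-MDR (1.76) and not in HeyA8 (-0.03). In the lipid kinase complex, UVRAG (0.39, adjusted p = 0.197) and NRBF2 (0.29, adjusted p = 0.292) passed among 6 genes. Of 9 genes of the ATG9, ATG2 and WIPI group, WDR45B (WIPI3) passed (0.29, adjusted p = 0.284). The shares that passed were 25% of the ULK complex, 33.3% of the lipid kinase complex and 11.1% of the ATG9, ATG2 and WIPI group.

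The conjugation enzymes split. ATG4A, a protease that trims LC3 and GABARAP proteins (0.71 ± 0.17, adjusted p = 0.153), and ATG12, the partner of ATG5 (0.56 ± 0.15, adjusted p = 0.157), were higher with QC in 6 of 6 lines. By contrast, ATG16L2, a relative of the ATG5 partner ATG16L1, was lower in 6 of 6 lines (-0.68 ± 0.13, adjusted p = 0.131) and ATG10, which joins ATG12 to ATG5, was lower in 5 (-0.51 ± 0.20, adjusted p = 0.251; named after its value was seen). The other 6 of the 10 enzymes, ATG16L1 and ATG7 among them, did not pass. The share of the enzymes that passed was 40%, against 15.2% of all genes.

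Among 12 other cargo receptors 4 passed, all higher: TAX1BP1 (0.55 ± 0.13, adjusted p = 0.146), the mitophagy receptors BNIP3L (0.48 ± 0.14, adjusted p = 0.176) and BNIP3 (0.57 ± 0.18, adjusted p = 0.186, named after its value was seen), and OPTN (0.39 ± 0.12, adjusted p = 0.18). TAX1BP1 and OPTN were higher in 6 of 6 lines. Among 8 fusion genes the SNARE YKT6 passed (0.25, adjusted p = 0.304), and among 18 regulators RRAGC (0.43, adjusted p = 0.176), TP53INP1 (0.73, adjusted p = 0.267) and TSC2 (-0.38, adjusted p = 0.308) did. The shares that passed were 33.3% of the receptors, 12.5% of the fusion genes and 16.7% of the regulators, against 15.2% of all genes.

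Genes of neighbouring responses were counted in the same way. Of 20 lysosomal genes described as TFEB targets 4 passed, 3 higher and 1 lower, among them ATP6V1H (0.43, adjusted p = 0.176) and LAMP2 (0.25, adjusted p = 0.286; named after its value was seen), which were higher, and SGSH (-0.39, adjusted p = 0.231), which was lower, and the median was 0.09. Of 12 NRF2 targets 1 passed, GCLC, the catalytic subunit for glutathione synthesis (-0.43, adjusted p = 0.26), and the median was -0.06. Of 12 ATF4 and DDIT3 targets 5 passed: the transcription factors ATF3 (1.47 ± 0.36, adjusted p = 0.153) and DDIT3 (0.58, adjusted p = 0.203) were higher, whereas the serine synthesis enzyme PSAT1 (-0.88, adjusted p = 0.198), ASNS (-0.76, adjusted p = 0.208) and VLDLR (-0.38, adjusted p = 0.26; ASNS and VLDLR named after their values were seen) were lower, and the median was -0.38. None of these genes had an adjusted p under 0.05 with edgeR. The shares past the unadjusted threshold were 20% of the TFEB targets, 8.33% of the NRF2 targets and 41.7% of the ATF4 and DDIT3 targets. Of all genes tested, 15.2% passed it.

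**Figure D5:**
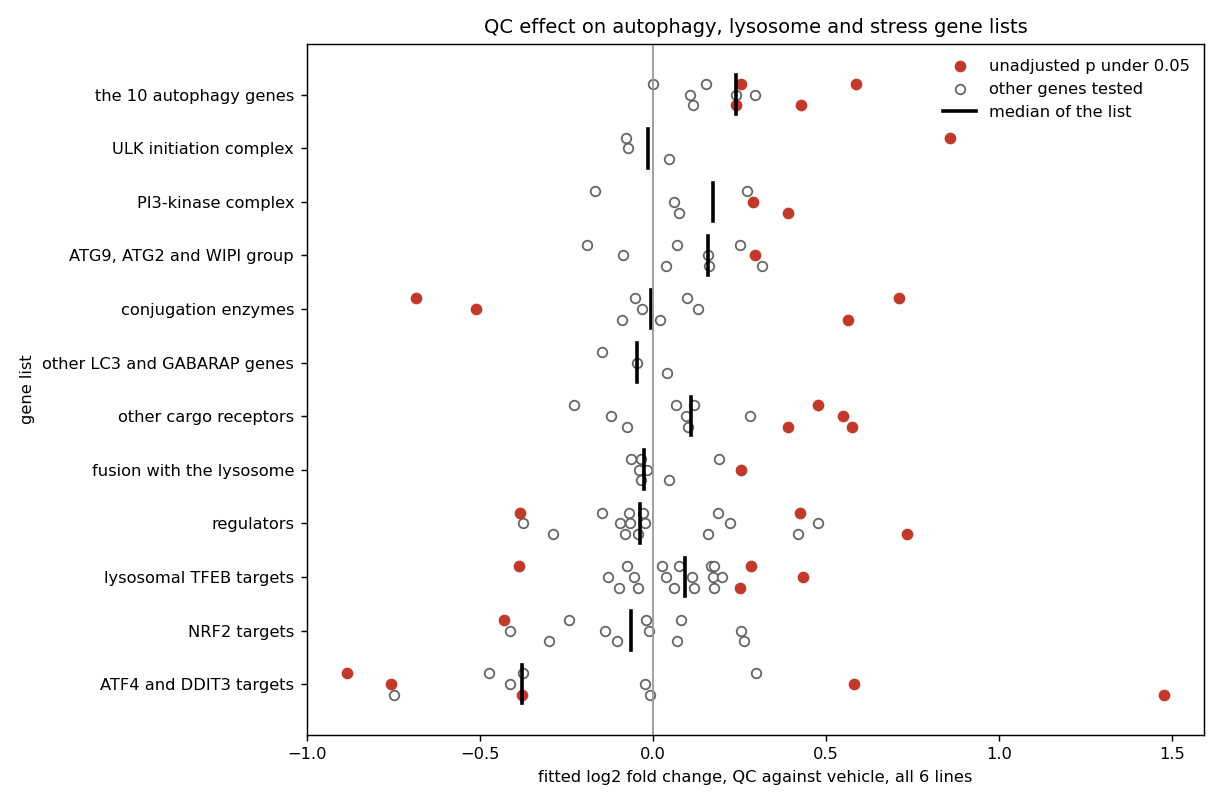
Fitted log2 change over 6 lines (horizontal axis) of the 10 genes and of each further list, with genes past an unadjusted p of 0.05 in red and the list median as a black bar. The median was 0.24 for the 10 genes, 0.09 for the lysosomal TFEB targets and -0.38 for the ATF4 and DDIT3 targets.

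The genes most like the 3 members with the smallest p were found by the correlation of log2 CPM over the same 12 libraries, which share lines and depth, so that the values describe likeness only. MAP1LC3B was nearest to SNX16 (r = 0.966), OSTM1 (r = 0.953) and INTS8 (r = 0.932). GABARAPL2 was nearest to UGGT2 (r = 0.935), TERF2IP (r = 0.933), which lies near it on chromosome 16, and TMEM68 (r = 0.929). NBR1 was nearest to TAB2 (r = 0.952), UBXN7 (r = 0.948) and ATP11B (r = 0.947).

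Several members share exon sequence with a gene on the opposite strand, and the strand setting of the counting is not stated, so reads of the 2 genes may not be told apart. The longest shared stretches were 1582 bases of SQSTM1 with MRNIP (43 to 248 counts per library), 1047 bases of ATG14 with FBXO34 (400 to 1966 counts), 829 bases of WIPI1 with ARSG (32 to 407 counts) and 795 bases of BECN1 with CNTD1 (18 to 51 counts). BECN1 (1044 to 3862 counts) also shared 300 bases with PSME3, which had 2045 to 11416 counts. MAP1LC3B shared 60 bases with FBXO31. For ATG14 the neighbour's counts were as high as its own (635 to 1583).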

How the data were processed

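Reads per gene were measured in 12 TruSeq RNA libraries from 6 established cell lines described as OC lines. The authors deposited raw counts per gene without normalization, summed by HTSeq. The paper's methods name TopHat and hg19, whereas the submitters' processing notes name STAR 2.7.3a, HTSeq 0.6.1p1 and GRCh38.p13. The difference is unresolved, and neither annotation nor strand setting is given in the sources used here. Multi-mapped and opposite-strand reads could therefore shift the counts of copied or overlapping genes.

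Versioned Ensembl IDs were paired with symbols through a GENCODE table (58663 of 60669 IDs, 99.87% of counts), and all 10 members were found. Tests used edgeR 4.0.16 (R 4.3.3): filterByExpr by the 4 groups (minimum count 10, minimum total 15), TMM scaling, a term for each cell line and a quasi-likelihood test, two-sided, with Benjamini-Hochberg adjustment over all genes tested. One fit had a single QC effect (5 residual degrees of freedom), another had QC effects in sensitive and in resistant lines (4), and another compared vehicle libraries within isogenic pairs. Changes per line used a prior count of 2, and their 95% intervals cover counting error only. Within a line, deviations from the group means of vehicle and QC correlated at 0.893 to 0.929 across genes, and the shared line gives the pairing. No group has replicate cultures, so p-values measure the spread between lines. The QC fits and the sign-flip tests take the lines as independent, although they form isogenic pairs.

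Counts were simulated from these libraries for 18720 genes, with 1 dispersion (0.0575) for all genes. The fit over 6 lines called 88% of 100 genes changed 2-fold, 100% of 100 changed 4-fold and 5 unchanged genes. The changed genes had a mean above 100 counts and the same change in every line. Smaller changes, such as the 1.50-fold of MAP1LC3B, were not simulated. With 1 dispersion for all genes and equal changes in every line, the simulation was also simpler than these data. The shares therefore do not tell how often changes of the members' size, or of 2-fold or 4-fold, would be called in these data. Alternatives were DESeq2 1.42.0, other scalings, other filters, no line term and leaving out each line. A fit without the HeyA8 family was chosen after seeing the data. Gene lengths came from GENCODE exons and promoters from RefSeq (GRCh38.p14). The members, the gene lists and the tests were chosen with earlier results of these data known. Named genes outside the members are, by rule, at most the 3 of each list with the smallest unadjusted p under 0.05, other LC3 and GABARAP genes, the 3 genes nearest to each of 3 members, ABCB1 and markers. Genes marked as named after their values were seen are outside this rule, as are ATG16L1, ATG7 and genes that overlap a member. Plots were drawn with matplotlib 3.10.9. The values of 1 listed gene are not reported here.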

Additional observations from a re-analysis of the deposited data

How the results depend on the processing

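Of the 140 member values recomputed for the QC effect over 6 lines, 131 kept their direction and side of the adjusted threshold, 2 passed it (MAP1LC3B with DESeq2 and without the filter) and 7 reversed, 6 of them SQSTM1. SQSTM1 was -0.00996 with library size alone, -0.0011 without the filter, -0.0089 without the HeyA8 family, and between -0.0372 and 0.0359 when a line was left out. MAP1LC3B lay between 0.47 and 0.77 over 14 alternatives and passed the unadjusted threshold in 13, GABARAPL2 in 12, NBR1 and BECN1 in 5 each. The share of all genes past either threshold was not counted in the alternatives. The numbers of members and pathway genes that passed in them therefore have no background beside them.

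Without the replicate block (the line term that keeps the pairing) 0 members passed the unadjusted threshold in any QC effect, 2 pathway genes passed against 16, WIPI1 was -0.0538 over 6 lines and SQSTM1 0.0392 between vehicle libraries. With DESeq2, 1 member and 7 pathway genes passed the adjusted threshold over 6 lines, 1 member passed unadjusted in sensitive lines, and WIPI1 was 0.0046 in resistant lines. Without the filter, 1 member and 8 pathway genes passed adjusted and 2 members unadjusted. DESeq2 size factors left 2 members over 6 lines and 1 in sensitive lines past the unadjusted threshold and gave WIPI1 0.0022 in resistant lines. Library size alone left 2 members and gave SQSTM1 0.0154 between vehicle libraries. A minimum of 10 counts in every library gave 2 members in resistant lines and SQSTM1 0.0161 between vehicle libraries. Without the HeyA8 family, 1 member passed over 6 lines, 0 in sensitive and 0 in resistant lines, and WIPI1 was 0.18 in resistant lines.

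Scaling to RPLP0 moved the median of all genes to 0.18 over 6 lines, 0.29 in sensitive lines and -0.41 between vehicle libraries. Member medians moved with it to 0.42, 0.50 and -0.60, with 5 members past the unadjusted threshold in sensitive lines, 2 in resistant lines and 2 between vehicle libraries. SQSTM1 became 0.0081 and WIPI1 0.0718 in resistant lines, and GABARAPL2 (-0.14), ATG14 (-0.0252) and WIPI1 (-0.24) reversed between vehicle libraries.

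With a line left out, the members past the unadjusted threshold numbered 2 to 5 over 6 lines, 0 to 2 in sensitive lines, 0 to 2 in resistant lines and 0 to 1 for the difference. The member median in resistant lines ran from 0.11 to 0.35. Values that reversed in resistant lines ran from -0.40 to 0.20 (WIPI1), -0.0023 to 0.56 (ATG5), -0.0508 to 0.14 (ATG14), -0.13 to 0.32 (GABARAPL1) and -0.0388 to 0.37 (ULK1), and ULK1 ran from -0.0025 to 0.13 in sensitive lines. With a pair left out of the vehicle comparison, MAP1LC3B ran from -0.51 to 0.15, SQSTM1 from -0.27 to 0.44, WIPI1 from -0.19 to 0.55 and GABARAPL2 from -0.0174 to 0.65. The cause of these shifts was not tested. Leaving out a library is here the same as leaving out its line, since no pair is left.

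Members had 154 to 14149 counts in a library, and the intervals given for each line cover counting error only.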
